A study of Mus musculus with 15 samples.

Results

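Pdgfra, Cspg4, Olig1, Olig2, Sox10, Myrf, Gpr17, Bcas1 and Enpp6 mark successive steps of the oligodendrocyte lineage, and they were followed across the thalamus of APOE4 mice with and without amyloid pathology and with and without Lilrb4a. The genes were chosen by name, and 9 of 9 were found among the 29659 genes of every library. The data were 15 bulk RNA-seq libraries from 4.5-month-old mice in 4 groups: 5EL (5xFAD/APOE4+/+/Lilrb4a+/+, n = 5), 5ELKO (5xFAD/APOE4+/+/Lilrb4a-/-, n = 4), EL (APOE4 knock-in with intact Lilrb4a and no 5xFAD transgenes, n = 3) and ELKO (APOE4+/+/Lilrb4a-/-, n = 3). By the labels, human APOE4 replaced mouse Apoe in all 4 groups, but 1 ELKO library had far more mouse Apoe transcript than the others, as given below. The 5xFAD transgenes, which give amyloid plaques, are driven by the neuronal Thy1 promoter. Lilrb4a, an inhibitory receptor of microglia and other myeloid cells, was deleted in the whole animal and not in microglia alone. Mice were perfused before dissection, and the tissue was bulk thalamus rather than sorted cells. The study asked whether Lilrb4a plays a part in amyloid deposition and whether lowering it turns microglia toward clearance, with sequencing as an exploratory step, and the lineage genes are read here against that design.

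Oligodendrocyte precursor cells divide and migrate in response to platelet-derived growth factor, which they sense through the receptor encoded by Pdgfra, and they carry the NG2 proteoglycan encoded by Cspg4. The transcription factors Olig1, Olig2 and Sox10 are present throughout the lineage, and Sox10 activates Myrf, the factor that switches on myelin genes when a cell leaves the precursor state. Committed cells pass through a stage marked by Gpr17 and Bcas1 and then by Enpp6 before they become myelinating oligodendrocytes, which lose Gpr17. The thalamus is crossed by many myelinated axons, so oligodendrocytes are a sizeable part of its cells.

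Promoter sequence was printed for 3 of the 9 genes because their values moved together between libraries (Pdgfra with Cspg4, and Enpp6 with Sox10). The sequences are from RefSeq (GRCm38.p6, plus strand, 5′ to 3′), and each ends before the annotated start of its gene. Capitals mark matches on either strand to CANNTG, the E-box read by basic helix-loop-helix factors such as Olig2, or to ACAAAG or ACAATG, letters read by SOX factors.
Pdgfra, chr5:75152001-75152250: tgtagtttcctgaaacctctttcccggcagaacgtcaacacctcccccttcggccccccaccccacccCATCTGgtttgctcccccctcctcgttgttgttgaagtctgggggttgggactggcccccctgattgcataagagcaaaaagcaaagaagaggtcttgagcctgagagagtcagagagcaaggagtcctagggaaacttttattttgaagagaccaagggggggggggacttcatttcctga
Cspg4, chr9:56864854-56865032: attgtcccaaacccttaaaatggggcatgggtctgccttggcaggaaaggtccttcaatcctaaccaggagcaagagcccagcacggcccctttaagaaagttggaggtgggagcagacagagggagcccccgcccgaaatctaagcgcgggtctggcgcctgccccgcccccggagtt
Enpp6, chr8:46986637-46986886: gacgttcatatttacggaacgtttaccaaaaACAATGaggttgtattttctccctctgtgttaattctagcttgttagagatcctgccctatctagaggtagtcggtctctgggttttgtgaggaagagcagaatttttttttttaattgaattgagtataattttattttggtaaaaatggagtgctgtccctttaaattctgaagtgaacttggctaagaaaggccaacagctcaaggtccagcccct
The window of Pdgfra held 1 E-box and no SOX match, and that of Enpp6 held 1 SOX match and no E-box. Windows of 250 bases held an E-box in 66.2% and a SOX match in 25.2% of 32851 promoters. Neither motif occurred in the 179 bases of Cspg4, a length at which 55.3% of promoters held an E-box and 19.1% a SOX match. A window of Olig2 was also searched but not printed, though Olig2 moved with Sox10 too (r = 0.63). Its 157 bases held neither motif, at a length where 50.8% of promoters held an E-box and 16.9% a SOX match. A match is a description of the letters and does not show that a factor was bound.

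The labels were checked before the lineage genes were compared. The highest Lilrb4a value among the 7 knockout libraries was 2.33, and the other 8 libraries gave 2.34 to 2.66, a narrow separation among low values. Mouse Apoe was 5.92 to 6.37 in 14 libraries and 10.90 in ELKO replicate 1, which goes against the APOE4 knock-in label of that library. Some lineage gene differences that use this library are also given without it. List counts and medians, permutation tests, pair signs and correlations include it. Choroid plexus genes averaged 7.89 in 5EL replicate 1 and 8.28 in ELKO replicate 2, against 5.80 to 6.34 elsewhere. Erythroid genes averaged 6.93 in EL replicate 3 and 5.90 in EL replicate 2, against 4.78 to 5.47 elsewhere. Hypothalamic genes averaged 6.54 in 5EL replicate 3, against 5.10 to 6.16 elsewhere. Thalamic markers were high throughout, with a list mean of 12.13 to 12.50. In 15 of 15 libraries Xist lay below 4 Y-linked genes. Group values include every library.

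All 9 genes passed the filter on low values in each fit, and per length their levels ran from Olig1 and Bcas1 at the top to the precursor gene Cspg4 and the newly formed cell gene Enpp6 at the bottom. The deposited log2 value grows with transcript length, so genes were ranked after the linear value was divided by summed exon length. Olig1 was highest, at a mean log2 value per kb of 10.68, and Bcas1, a protein of early myelinating cells, followed at 10.06. Olig2 (8.27), Sox10 (8.10), Myrf (7.57) and Gpr17 (7.48) formed the middle of the order. Pdgfra (7.08), Cspg4 (5.03) and Enpp6 (4.26), a choline phosphodiesterase of newly forming oligodendrocytes, were lowest. Within single libraries, Olig2 exceeded Sox10 in 13 of 15 and Myrf exceeded Gpr17 in 9 of 15, so these neighbours were not separated by more than their spread. All other neighbours kept the same order in 15 of 15 libraries.

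**Figure D1:**
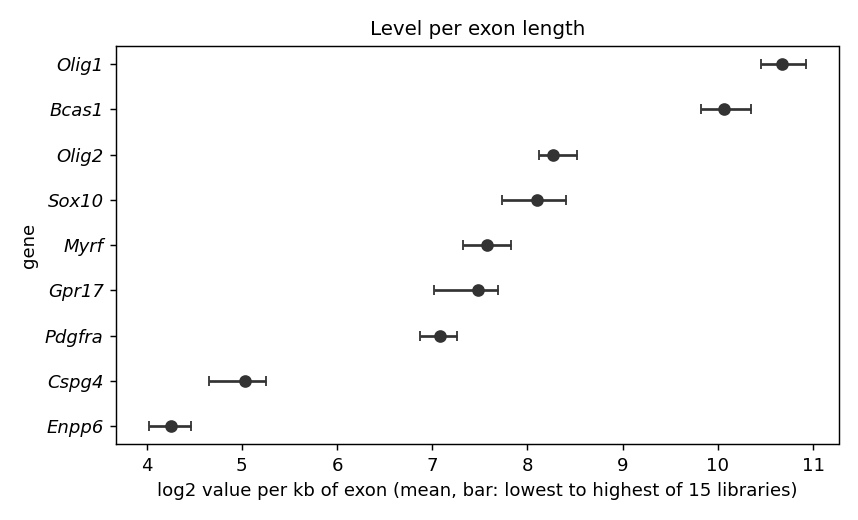
Level of each gene per kb of exon (x axis, log2 of the linear value per kb), with genes on the y axis, points at the mean of 15 libraries and bars from the lowest to the highest library. Olig1 (10.68) and Bcas1 (10.06) stand above the other 7 genes, and the bars of Olig2 and Sox10 and of Myrf and Gpr17 overlap.

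The range between libraries was at most 1.59-fold for any of the genes, but each varied more within groups than most genes of its level. From the lowest to the highest of 15 libraries the range was 1.31-fold for Pdgfra and 1.33-fold for Olig2, the narrowest, and 1.59-fold for both Sox10 and Gpr17, the widest. The SD within groups was 0.10 for Pdgfra and 0.12 for both Olig2 and Myrf, against 0.17 for Cspg4, Sox10 and Gpr17 (log2). Among genes within 0.5 log2 units of the same level, 87.6% varied less within groups than Gpr17, 86.7% less than Cspg4 and 85.8% less than Sox10. The share was 83.4% for Bcas1, 74.4% for Olig1, 74.0% for Enpp6, 69.6% for Myrf and 65.5% for Olig2. Pdgfra, at 54.9%, was near the middle.

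Pdgfra, the receptor on which precursor proliferation depends, was nearly level across the 4 groups. The gene lies at chr5:75152292-75198215 on the plus strand (GRCm38), and 652 of its exonic bases are shared with annotated neighbours, most of them on the opposite strand, from which reads counted without strand cannot be told apart. Its log2 values were 10.46, 10.58, 10.27, 10.40 and 10.39 in 5EL replicates 1 to 5 and 10.44, 10.34, 10.38 and 10.57 in 5ELKO replicates 1 to 4. Replicates 1 to 3 gave 10.44, 10.32 and 10.2 in EL and 10.44, 10.45 and 10.42 in ELKO. EL replicate 3 was the lowest of all and 5EL replicate 2 the highest, and every pair of groups overlapped. Means were 10.42 ± 0.11 in 5EL (SD, n = 5), 10.43 ± 0.10 in 5ELKO (SD, n = 4), 10.32 ± 0.12 in EL (SD, n = 3) and 10.44 ± 0.01 in ELKO (SD, n = 3). Cspg4, whose protein NG2 is also carried by pericytes, lies at chr9:56865033-56899870 on the plus strand and shares no exonic base with another gene. Its 5EL values were 8.72, 8.83, 8.23, 8.59 and 8.63 and its 5ELKO values 8.67, 8.51, 8.77 and 8.61. EL gave 8.81, 8.61 and 8.50 and ELKO 8.58, 8.64 and 8.42. 5EL replicate 3 stood lowest and 5EL replicate 2 highest, so the 5EL group alone covered the values of the other 3 groups. The means of Cspg4 were 8.60 ± 0.23 in 5EL (SD, n = 5), 8.64 ± 0.11 in 5ELKO (SD, n = 4), 8.64 ± 0.16 in EL (SD, n = 3) and 8.55 ± 0.11 in ELKO (SD, n = 3).

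The lineage transcription factors differed little between groups, with Sox10 and Myrf the most separated and Olig1 and Olig2 the least. Olig1 (chr16:91269772-91271933) and Olig2 (chr16:91225457-91228677), basic helix-loop-helix factors that specify the lineage, lie on the plus strand of the same chromosome. Olig1 was 11.70, 11.82, 11.80, 11.84 and 11.75 in 5EL and 11.57, 11.65, 11.93 and 11.88 in 5ELKO. It was 11.71, 11.86 and 11.94 in EL and 11.64, 11.73 and 12.03 in ELKO. The 5EL values fell inside the range of 5ELKO, where replicates 1 and 2 were the lowest and replicates 3 and 4 the highest of these 9 libraries. Olig2 was 9.51, 9.61, 9.50, 9.86 and 9.71 in 5EL and 9.53, 9.56, 9.67 and 9.77 in 5ELKO. EL values of Olig2 were 9.62, 9.53 and 9.66, and ELKO values were 9.53, 9.46 and 9.62. 5EL replicate 4 was the highest library for Olig2 and ELKO replicate 2 the lowest, and all groups overlapped. Group means were 11.78 ± 0.05 in 5EL (SD, n = 5), 11.76 ± 0.17 in 5ELKO (SD, n = 4), 11.84 ± 0.11 in EL (SD, n = 3) and 11.80 ± 0.21 in ELKO (SD, n = 3) for Olig1. Those of Olig2 were 9.64 ± 0.15 in 5EL (SD, n = 5), 9.63 ± 0.11 in 5ELKO (SD, n = 4), 9.60 ± 0.07 in EL (SD, n = 3) and 9.54 ± 0.08 in ELKO (SD, n = 3).

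Sox10, the SOX factor kept from precursor to mature cell, was highest on average in 5ELKO. It lies at chr15:79154908-79165240 on the minus strand and shares no exonic base with another gene. Its values were 9.52, 9.91, 9.34, 9.73 and 9.65 in 5EL replicates 1 to 5 and 9.67, 9.69, 10.01 and 9.99 in 5ELKO replicates 1 to 4. They were 9.72, 9.72 and 9.76 in EL and 9.52, 9.62 and 9.71 in ELKO. Replicates 3 and 4 of 5ELKO were above all 5EL libraries, while replicates 1 and 2 fell within the 5EL range. All 3 ELKO libraries were below all 3 EL libraries, and the nearest of them differed from EL in the second decimal. Myrf, the membrane-bound factor that activates myelin genes, lies at chr19:10208272-10240748 on the minus strand. Its values were 10.54, 10.80, 10.43, 10.68 and 10.71 in 5EL and 10.75, 10.65, 10.93 and 10.90 in 5ELKO. EL libraries gave 10.50, 10.67 and 10.55 and ELKO libraries 10.69, 10.55 and 10.70. The same 5ELKO replicates, 3 and 4, were above every 5EL library for Myrf, and 5EL replicate 3 was the lowest of the 15 for both genes. Means of Sox10 were 9.63 ± 0.21 in 5EL (SD, n = 5), 9.84 ± 0.18 in 5ELKO (SD, n = 4), 9.73 ± 0.02 in EL (SD, n = 3) and 9.62 ± 0.09 in ELKO (SD, n = 3), and those of Myrf were 10.63 ± 0.15 in 5EL (SD, n = 5), 10.81 ± 0.13 in 5ELKO (SD, n = 4), 10.57 ± 0.09 in EL (SD, n = 3) and 10.65 ± 0.08 in ELKO (SD, n = 3).

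Genes of committed and newly formed cells were likewise close between groups, and Gpr17 had the widest spread within a group. Gpr17, a receptor that holds cells at the committed stage, shares 188 exonic bases with Lims2 on the opposite strand. Lims2 was 7.70 to 8.13, with r = -0.57 to Gpr17 after group means were removed. That r was 0.16 in the 9 5xFAD libraries and -0.95 in the 6 EL and ELKO libraries. Gpr17 was 9.96, 9.71, 9.92, 9.97 and 9.78 in 5EL and 10.03, 10.06, 9.99 and 9.81 in 5ELKO. It was 9.94, 9.78 and 9.40 in EL and 10.02, 9.77 and 9.64 in ELKO. EL replicate 3, the library with the most erythroid transcript, was the lowest by a wide margin, and 3 of 4 5ELKO libraries were above all 5EL libraries. Bcas1 lies at chr2:170346991-170427845 on the minus strand and shares 474 exonic bases with antisense genes, whose own values stayed at or below 2.87. Bcas1 was 11.74, 11.97, 11.84, 12.11 and 11.99 in 5EL and 12.04, 11.85, 12.09 and 12.08 in 5ELKO. EL values of Bcas1 were 11.76, 12.13 and 12.26, and its ELKO values were 11.87, 11.85 and 12.09. EL alone spanned the values of all other libraries except 5EL replicate 1. Enpp6 lies at chr8:46986887-47096762 on the plus strand. Enpp6 was 6.86, 7.14, 6.72, 6.88 and 6.71 in 5EL and 6.93, 7.04, 7.15 and 7.09 in 5ELKO. It was 6.79, 7.02 and 6.86 in EL and 6.76, 7.08 and 7.04 in ELKO. Only 5EL replicate 2 reached the 5ELKO range of Enpp6, and there it lay just under the highest 5ELKO library. Means were 9.87 ± 0.12 in 5EL (SD, n = 5), 9.97 ± 0.11 in 5ELKO (SD, n = 4), 9.70 ± 0.28 in EL (SD, n = 3) and 9.81 ± 0.19 in ELKO (SD, n = 3) for Gpr17. For Bcas1 they were 11.93 ± 0.14 in 5EL (SD, n = 5), 12.02 ± 0.11 in 5ELKO (SD, n = 4), 12.05 ± 0.26 in EL (SD, n = 3) and 11.93 ± 0.13 in ELKO (SD, n = 3). For Enpp6 they were 6.86 ± 0.17 in 5EL (SD, n = 5), 7.05 ± 0.09 in 5ELKO (SD, n = 4), 6.89 ± 0.12 in EL (SD, n = 3) and 6.96 ± 0.18 in ELKO (SD, n = 3).

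**Figure D2:**
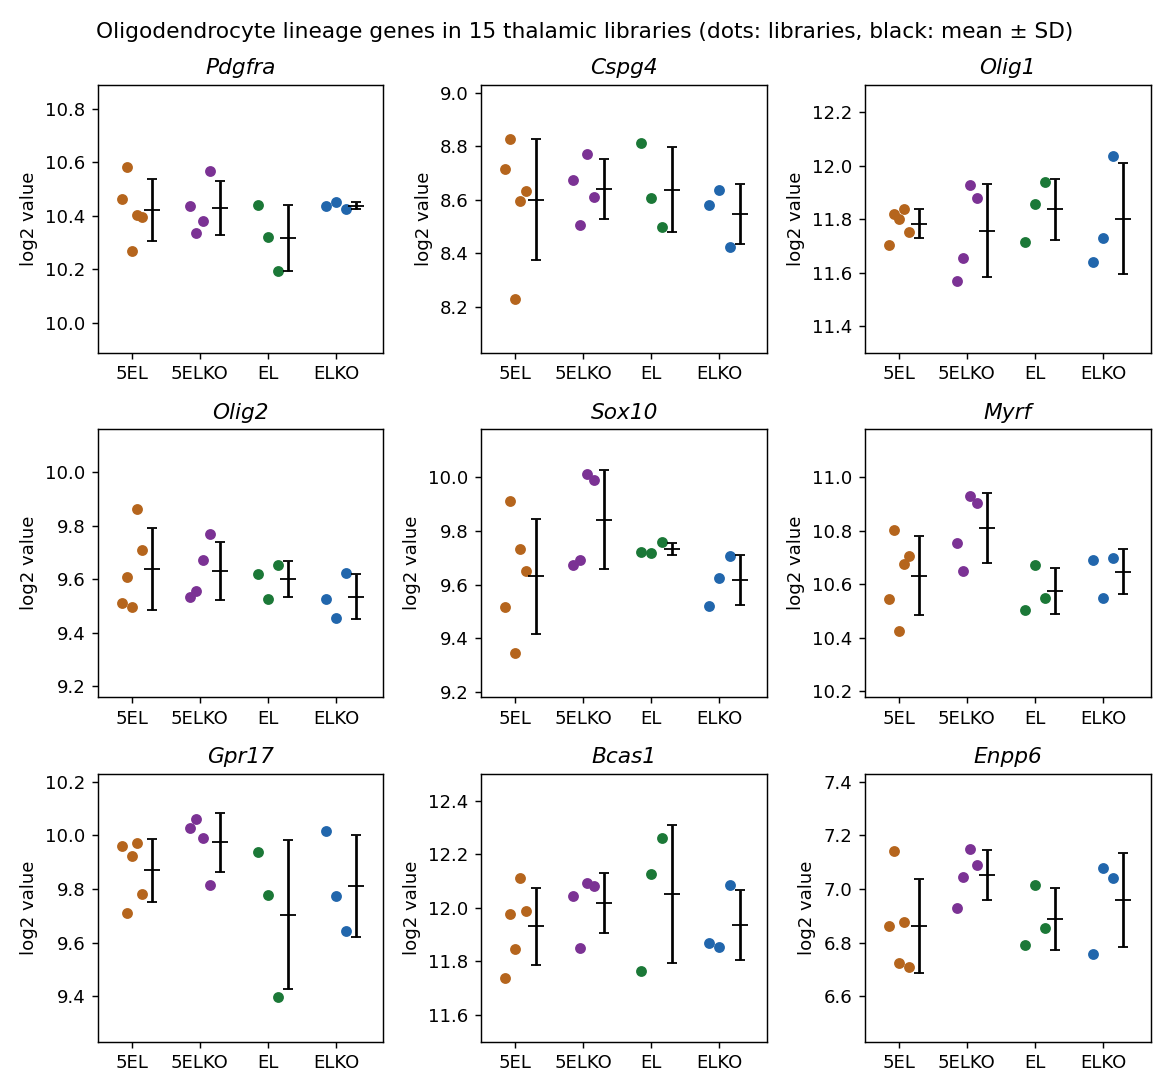
Deposited log2 value (y axis) of each gene in the 15 libraries, by group (x axis), with a dot for each library and the group mean ± SD in black. The 2 highest 5ELKO dots of Sox10 (10.01 and 9.99) and Myrf (10.93 and 10.90) lie above all 5EL dots, and the other 5ELKO dots of these genes lie among them.

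Loss of Lilrb4a with amyloid present (5ELKO against 5EL) gave higher mean Sox10, Enpp6 and Myrf and nearly equal means of the precursor receptors, and no lineage gene passed the test across all genes. Sox10 was higher by 0.21 (log2, SE 0.11), which is 1.16-fold. Enpp6 was higher by 0.19 (SE 0.09) and Myrf by 0.18 (SE 0.08). Gpr17 (0.10), Bcas1 (0.09), Cspg4 (0.04), Pdgfra (0.01), Olig2 (-0.01) and Olig1 (-0.03) differed less. The differences and errors are from limma, and the Benjamini-Hochberg adjusted p over 15743 genes was 0.999 for each of the 9. Counted by unadjusted p under 0.05, 2 of 9 lineage genes were called, against 2.49% of all genes tested, while the adjusted test called 3 genes (0.0191%), none of them a lineage gene. The groups did not overlap for 0 of 9 lineage genes, against 1.06% of all genes. Exact two-sided permutation tests over the 9 libraries gave p = 0.0952 for Enpp6, p = 0.111 for Myrf and p = 0.143 for Sox10, where the smallest possible p was 0.00794. The 36 permutation tests of the 4 pairwise comparisons were not adjusted. The 95% confidence intervals of the 9 genes ran from 0.881-fold to 1.36-fold. In bulk tissue, fewer cells of a type and less RNA per cell cannot be told apart, here and in every comparison below.

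Single libraries moved these differences. Without 5EL replicate 3, the lowest library for both, Sox10 was higher by 0.14 and Myrf by 0.13, and without 5EL replicate 2 Sox10 was higher by 0.28 and Enpp6 by 0.26. Unadjusted p fell below 0.05 in 3 of 18 alternative settings for Sox10, in 9 for Myrf, in 7 for Enpp6 and in 1 for Gpr17, and adjusted p did not in any of them. Myrf was no longer called when replicate 1 or 3 of 5EL or replicate 3 or 4 of 5ELKO was left out. Enpp6 stayed called only without 5EL replicate 2 or 5ELKO replicate 1 among the 9 libraries left out in turn. Hepatocyte genes also differed between these groups. Of 15 such genes, 14 were higher in 5ELKO at unadjusted p under 0.05 and 2, Alb and Bhmt, after adjustment, and their mean was 4.51 to 4.89 in 5ELKO and 4.22 to 4.37 in 5EL. Over 15 libraries with group means removed, the hepatocyte mean had r = -0.02 with Sox10, -0.15 with Myrf and -0.13 with Enpp6. Those values changed sign to 0.25, 0.07 and 0.27 without the 2 farthest libraries. The hepatocyte mean had r = 0.56 with Pdgfra, 0.55 with Cspg4 and -0.55 with Bcas1, or 0.53, 0.55 and -0.35 without the 2 farthest libraries. The part of these transcripts in the group difference was not tested. Fibroblast genes, another source of Pdgfra, were called in 0 of 10 cases, and genes of pericytes and smooth muscle, another source of Cspg4, in 0 of 12 at unadjusted p under 0.05.

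With Lilrb4a intact, amyloid libraries and their controls (5EL against EL) differed by at most 0.17 (log2) in any of the 9 genes, and no gene passed the test. Gpr17 was 0.17 higher (SE 0.11), Pdgfra 0.10 higher (SE 0.07), Bcas1 0.12 lower (SE 0.11) and Sox10 0.10 lower (SE 0.11) in 5EL, and the limma adjusted p over 15804 genes was 0.647 or more for all 9. By adjusted p, 0 genes of the whole table were called (0%). At unadjusted p under 0.05, 0 of 9 lineage genes were called, against 1217 genes or 7.7% of those tested. No lineage gene separated the groups, against 3.26% of all genes, and the smallest exact permutation p was 0.286. Confidence intervals ran from 0.787-fold to 1.32-fold. EL replicates 1 and 3 set the values of Gpr17 and Bcas1. Without EL replicate 3, Gpr17 was 0.01 higher and Bcas1 0.01 lower. Without EL replicate 1, Gpr17 was 0.28 higher and Bcas1 0.26 lower, both at unadjusted p under 0.05, as were 3204 genes of the table. Thalamic markers were lower in 5EL for 5 of 10 genes at unadjusted p under 0.05, with a list mean of 12.13 to 12.45 against 12.43 to 12.50 in EL, and its part in the lineage values was not tested.

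Without Lilrb4a, the same contrast (5ELKO against ELKO) gave Sox10 0.23 higher (SE 0.11), Gpr17 0.16 higher (SE 0.12) and Myrf 0.16 higher (SE 0.09). Adjusted p was 0.999 for each of the 9 genes, and 0 genes of the whole table passed (0%). At unadjusted p under 0.05, 0 of 9 were called, against 375 genes or 2.37%, and 0 of 9 separated the groups, against 3.4%. Without ELKO replicate 1, Sox10 was 0.18 higher, Gpr17 0.27 higher and Myrf 0.18 higher, and Gpr17 was then called at unadjusted p under 0.05, as were 794 genes of the table. Sox10 was called in 5 of 24 alternative settings, among them without 5ELKO replicate 1 or 2, and Myrf in 1, without 5ELKO replicate 2. The smallest exact permutation p over the 7 libraries was 0.171, with 0.0286 the smallest possible. Hepatocyte genes were again higher in 5ELKO, with 13 of 15 at unadjusted p under 0.05. This comparison shares its 5ELKO libraries with 5ELKO against 5EL, as 5EL against EL shares its 5EL libraries, so the like values of Sox10 and Myrf in both are not separate observations.

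Averaged over both Lilrb4a genotypes, 5xFAD libraries had 0.16 more Gpr17 (SE 0.08) and 0.11 more Myrf (SE 0.06) on the log2 scale, with limma adjusted p = 0.693 for both. The other 7 genes lay between -0.05 (Olig1) and 0.07 (Olig2). At unadjusted p under 0.05, 0 of 9 were called, against 1038 genes or 6.57%, and at adjusted p 0 genes (0%). Intervals ran from 0.875-fold to 1.26-fold. Without EL replicate 3 the Gpr17 difference was 0.09, and without ELKO replicate 1, the library with mouse Apoe, it was 0.22 and was called at unadjusted p under 0.05, as were 1788 genes of the table. Gpr17 was called so in 6 of 23 alternative settings, also without EL replicate 1, 5EL replicate 2 or 5ELKO replicate 4, and Myrf in 2, without 5EL replicate 3 or 5ELKO replicate 2. Genes listed as amyloid-responsive in oligodendrocytes differed more between the same libraries, and bulk tissue does not show which cells they came from. Complement C4b was 0.71 higher (SE 0.13) and the protease inhibitor Serpina3n 0.84 higher (SE 0.18), with adjusted p = 0.653 for both. Of 10 such genes, 6 were higher at unadjusted p under 0.05 and 0 were lower, and of 10 genes of plaque-associated microglia, 9 were higher.

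Loss of Lilrb4a without amyloid (ELKO against EL) gave no lineage gene past the test. Pdgfra was 0.12 higher (SE 0.08) in ELKO, Sox10 0.12 lower (SE 0.12) and Bcas1 0.11 lower (SE 0.12). Adjusted p was 0.998 for each gene, and 0 genes of the table passed (0%). At unadjusted p under 0.05, 0 of 9 were called, against 372 genes or 2.35%. Sox10 was the 1 gene of 9 whose groups did not overlap, against 4.59% of all genes, with an exact permutation p of 0.1, the smallest that 3 against 3 libraries allow. No label pairs EL with ELKO libraries. Taken by replicate number, ELKO was lower for Sox10 by 0.20, 0.09 and 0.05 and for Olig2 by 0.09, 0.07 and 0.03. Both were thus lower in 3 of 3 same-numbered pairs. One sign in every pair was found for 2 of 9 lineage genes and 28.6% of all genes, and for Sox10 it follows from groups that do not overlap. Without EL replicate 1, Pdgfra was 0.18 higher and Bcas1 0.26 lower, both at unadjusted p under 0.05, as were 1832 genes. Without ELKO replicate 1, the library with mouse Apoe, Sox10 was 0.07 lower, Pdgfra 0.12 higher and Gpr17 0.00433 higher. With the replicate number as a block in a fit of these 6 libraries alone, Sox10 had an adjusted p = 0.690, and the count of genes at unadjusted p under 0.05 was 1110. Erythroid genes were lower in ELKO for 3 of 3 genes tested at unadjusted p under 0.05, and choroid plexus genes were higher for 12 of 12, all with unadjusted p above 0.05. Their part in the lineage values was not tested.

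The effect of Lilrb4a loss was also set against itself with and without amyloid (the interaction). Sox10 had the largest difference of the 9, higher by 0.33 with amyloid than without (SE 0.16), followed by Bcas1 at 0.20 (SE 0.15). Limma adjusted p was 0.9996 for all 9, 0 genes of the table passed (0%), and 0 of 9 were called at unadjusted p under 0.05, against 432 genes or 2.73%. The interval of Sox10 ran from 0.994-fold to 1.59-fold, leaving out each library in turn gave 0.26 to 0.40, and without ELKO replicate 1 the value was 0.28. Sox10 was called at unadjusted p under 0.05 in 6 of 23 alternative settings, namely after recentring and without replicate 2 or 4 of 5EL, replicate 1 or 2 of 5ELKO or replicate 3 of ELKO. Bcas1 was called in 1, without EL replicate 1, at 0.34. A difference between the 2 settings was therefore not shown for any of the genes.

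**Figure D3:**
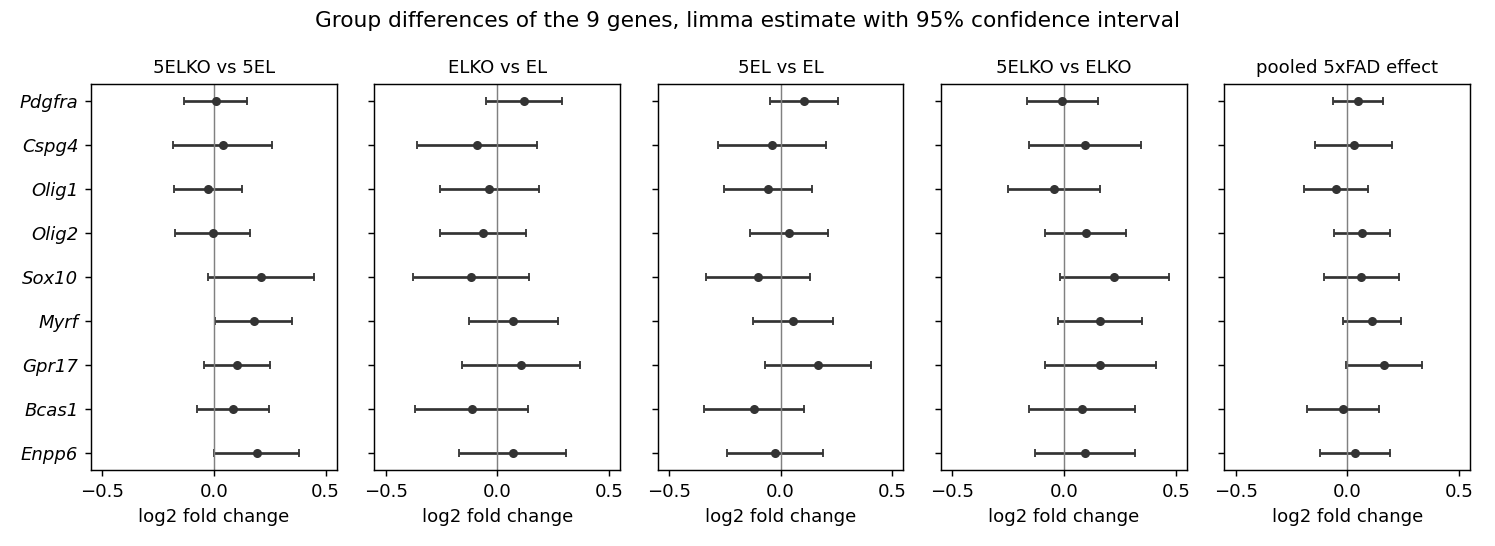
Group difference of each gene (y axis) as the limma log2 fold change (x axis) with its 95% confidence interval, in 5 panels for Lilrb4a loss with and without 5xFAD, for 5xFAD with and without Lilrb4a, and for 5xFAD pooled. Every interval includes 0 except those of Enpp6 (0.19) and Myrf (0.18) in the first panel.

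Wider lists of the lineage held 0 to 3 called genes each, to be read against 2.49% of all genes in the same comparison. In 5ELKO against 5EL, 0 of 18 further precursor genes were called at unadjusted p under 0.05, with a median difference of 0.03, and the extracellular matrix gene Matn4 came nearest at 0.13. Of 17 genes of committed and newly formed cells tested, 1 was called, the transcription factor Zfp488 at 0.14, with a median of 0.03. Of 24 genes of myelin and mature oligodendrocytes, 23 had a positive difference, with a median of 0.09, and 2 were called, the gap junction gene Gjb1 at 0.22 and Plekhh1 at 0.23. The median over all genes tested was 0.0016, and 51.0% of them had a positive difference. Of 34 regulators and growth factor signals, 3 were called, namely Nfia at 0.13, the neuregulin receptor Erbb3 at 0.25 and Prrx1 at 0.15. In the committed, myelin and regulator lists the share called was above that of all genes, on 1, 2 and 3 genes. None of these genes passed after adjustment, where limma gave adjusted p = 0.999. Of 7 proliferation genes tested, 0 were called. These genes come from the same cells and libraries, so their like signs are not independent counts.

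Group differences of the myelin genes were small beside their spread within groups, and the pooled medians of the lists were near 0. The mean of the 24 myelin genes was 10.80 ± 0.12 in 5EL (SD, n = 5) and 10.89 ± 0.17 in 5ELKO (SD, n = 4). It was 10.88 ± 0.22 in EL (SD, n = 3) and 10.84 ± 0.21 in ELKO (SD, n = 3). In 5EL against EL the myelin median was -0.07, with 5 of 24 genes higher, against 50.2% of all genes. In 5ELKO against ELKO it was 0.06, with 19 of 24 higher, against 49.7%. In the interaction the myelin median was 0.12, with 23 of 24 genes higher, against 49.3% of all genes. Of the 24, 1 was called at unadjusted p under 0.05, against 2.73% of all genes. Myelin genes vary together between libraries, so their like signs are not independent counts. In the pooled 5xFAD effect, where 6.57% of all genes were called, the median was 0.01 for precursor genes, with 1 of 18 called at unadjusted p under 0.05 and that 1 lower (Lhfpl3, by 0.11). It was 0.0043 for genes of committed and newly formed cells, with 1 of 17 called (Zfp536, 0.20), and -0.01 for myelin genes, with 0 of 24 called. Of 34 regulators, 1 was called, the basic helix-loop-helix factor Tcf12 at 0.09. In 5EL against EL, where 7.7% of all genes were called, Lhfpl3 was 0.19 lower and the matrix proteoglycan Vcan 0.15 higher at unadjusted p under 0.05, so the called precursor genes differed in direction. In ELKO against EL, 0 genes of these 4 lists were called, against 2.35% of all genes, and the medians were 0.01, 0.05, -0.04 and 0.03 in the order precursor, committed, myelin and regulator.

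Libraries of the same group differed from each other in sets of lineage genes that deviated together. After group means were removed, 26 of 36 pairs of lineage genes were positively correlated over the 15 libraries, with a median Pearson r of 0.42. Of the pairs, 13 had r over 0.5, 8 of them also after the 2 libraries farthest from the median were left out. Correlations are given as descriptions, because libraries share their scaling and cell mixture. Sox10 and Myrf were the closest pair, with r = 0.84 and Spearman's rho of 0.77, or r = 0.70 without the 2 farthest libraries. That relation lay in the 9 5xFAD libraries (r = 0.96) and was not seen in the 6 EL and ELKO libraries (r = -0.08). Whether the subsets differ was not tested. The precursor receptors Pdgfra and Cspg4 followed each other with r = 0.75, or 0.54 without the 2 farthest libraries, and did so in both subsets (0.71 and 0.86). Olig1 and Bcas1 had r = 0.67, and Sox10 and Enpp6 had r = 0.70. Gpr17 had r = -0.66 to Bcas1 and -0.64 to Olig1, the only 2 pairs below -0.5. These were -0.36 and -0.41 in the 9 5xFAD libraries, and -0.84 and -0.81 in the 6 EL and ELKO libraries. With Pdgfra and Cspg4 over the 15 libraries, Gpr17 was not negative, at r = 0.04 and 0.17, or 0.31 and 0.57 without the 2 farthest libraries. With the mean of the 18 further precursor genes, Gpr17 had r = 0.50. That value was -0.49 in the 5xFAD libraries and 0.97 in the EL and ELKO libraries, and a difference between subsets was not tested.

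**Figure D4:**
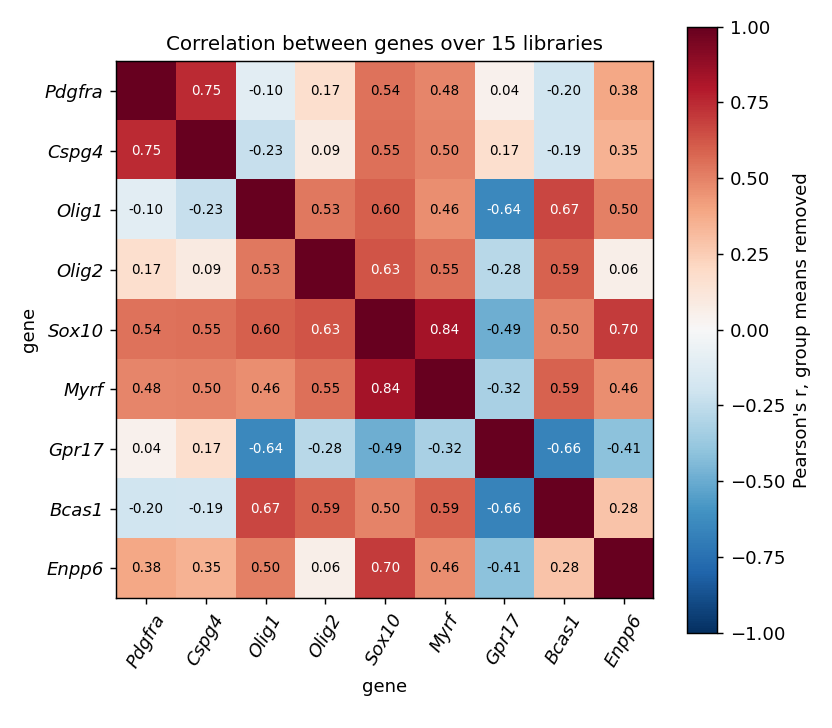
Pearson correlation between the 9 genes over 15 libraries after group means were removed, with genes on both axes and colour and printed value giving r. Sox10 with Myrf (0.84) and Pdgfra with Cspg4 (0.75) are the strongest pairs, and the Gpr17 row is negative against Olig1 (-0.64) and Bcas1 (-0.66).

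The genes divided by their relation to mature oligodendrocyte transcript. A myelin score, the mean log2 value of the 24 myelin genes, ranged from 10.65 in EL replicate 1 to 11.08 in EL replicate 3, so that 1 group covered the range of all 15 libraries. With group means removed, the score was positively correlated with Olig1 (r = 0.89), Bcas1 (0.84), Sox10 (0.72), Myrf (0.65), Olig2 (0.55) and Enpp6 (0.54), and it ran against Gpr17 (r = -0.84). Without the 2 farthest libraries the values were 0.85 for Olig1, 0.79 for Bcas1, 0.80 for Sox10 and -0.79 for Gpr17. The inverse relation of Gpr17 held in the 5xFAD libraries (r = -0.77, n = 9) and in the EL and ELKO libraries (r = -0.91, n = 6). In EL and ELKO alike, replicate 3 lay above its group mean of the score (0.20 and 0.24). Replicate 1 lay below it in both (-0.23 and -0.15). These 6 libraries are thus fewer separate observations than their number. In EL replicate 3, Gpr17 was 0.31 below and Bcas1 0.21 above the group mean, and in EL replicate 1 Gpr17 was 0.23 above and Bcas1 0.29 below.

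Pdgfra and Cspg4 had no single relation to the myelin score. Over 15 libraries r was 0.05 for Pdgfra and -0.09 for Cspg4, but in the 9 5xFAD libraries they were 0.61 and 0.44 and in the 6 EL and ELKO libraries -0.77 and -0.95. Whether the subsets differ was not tested, and the 6 libraries are few separate observations, as for Gpr17 above. Both followed the mean of the 18 further precursor genes, with r = 0.62 for Pdgfra and 0.73 for Cspg4, or 0.35 and 0.61 without the 2 farthest libraries. Transcripts of other regions moved with the same libraries. The mean of cortex and hippocampus genes had r = 0.71 with Cspg4, 0.57 with Gpr17, -0.57 with Olig1 and -0.56 with Bcas1. Those values became 0.67, 0.19, -0.49 and -0.19 when the 2 farthest libraries were left out. The cortex and hippocampus mean was lowest in EL replicate 3 (7.96) and ELKO replicate 3 (8.05), 2 of the libraries with the highest myelin score. The hypothalamic mean, highest in 5EL replicate 3, had r = 0.13 with Pdgfra, -0.06 with Cspg4 and -0.09 with Sox10. Without the 2 farthest libraries these were 0.65, 0.60 and 0.53. The endothelial mean had r = 0.76 with Bcas1 and -0.46 with Gpr17. The mean of pericyte and smooth muscle genes had r = 0.66 with Bcas1, 0.65 with Olig1 and -0.65 with Gpr17, or 0.66, 0.40 and -0.53 without the 2 farthest libraries. The erythroid mean had r = 0.67 with Bcas1 and -0.72 with Gpr17, or 0.24 and -0.33 without the 2 farthest libraries. The part of these transcripts and of dissection in the lineage values was not tested. Fibroblast genes had r = 0.08 with Pdgfra, and genes of pericytes and smooth muscle had r = -0.04 with Cspg4.

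**Figure D5:**
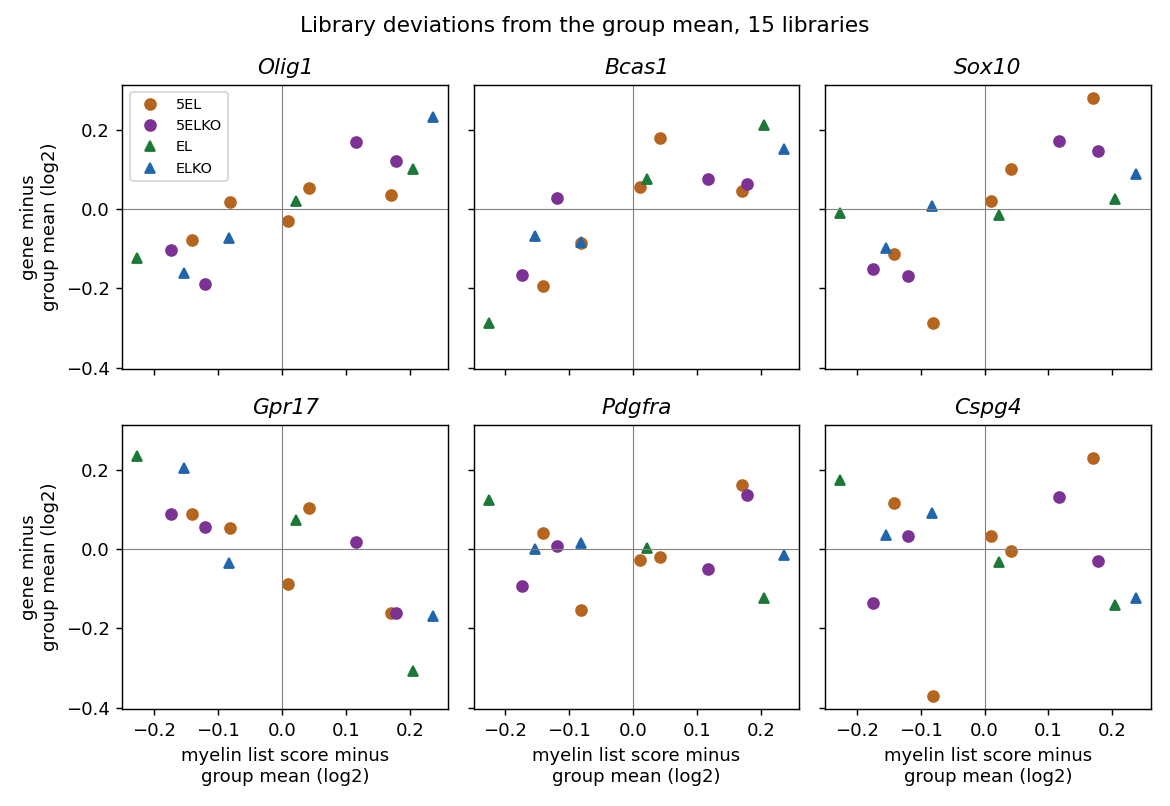
Deviation of 6 lineage genes from their group mean (y axis, log2) against the deviation of the myelin score (x axis, log2), with a point for each of 15 libraries, circles for 5xFAD groups and triangles for EL and ELKO. Olig1 (r = 0.89), Bcas1 (0.84) and Sox10 (0.72) slope upward, Gpr17 (-0.84) slopes downward, and Pdgfra (0.05) and Cspg4 (-0.09) show no common slope.

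Genes outside the 9 whose deviations were most like the means of sets of the 9 were listed by Pearson r over the 15 libraries, after group means were removed. For the mean of Pdgfra and Cspg4 they were the taurine transporter Slc6a6 (r = 0.91), the bromodomain gene Brd2 (0.91), Gpatch8 (0.90), Mllt6 (0.90) and the heat shock factor Hsf4 (0.89). For the mean of Olig1, Olig2, Sox10 and Myrf they were Prr18 (0.95), the translation factor Eif5 (0.92), the myelin-associated glycoprotein Mag (0.91), the alanine aminotransferase Gpt (0.91) and the sphingosine phosphate receptor S1pr5 (0.91). For the mean of Gpr17, Bcas1 and Enpp6 they were Ankrd24 (0.84), Catsper2 (0.83), Slc25a40 (0.82), Plekhh2 (0.82) and Sema4b (0.81). Within this set Gpr17 ran against Bcas1 (r = -0.66) and Enpp6 (-0.41), and Bcas1 had r = 0.28 with Enpp6. Its mean therefore does not describe a common step. These are the highest of all genes tested, so their r is high by selection.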

How the data were processed

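Thalamic RNA of 15 mice was sequenced. Per the methods, reads were checked with FastQC 0.11.9, trimmed with Trimmomatic 0.39, aligned to GRCm38 with HISAT2 2.2.1, sorted with SAMtools 1.16.1 and counted as read pairs per gene name, without strand, with featureCounts 2.0.3, and DESeq2 1.38.3 was used by the authors. The authors deposited log2 values (-2.27 to 18.98) whose transform is not given in the sources used here. Values of low genes lie close together, so fold changes of low genes may be understated. The deposited values hold no read counts, and the read totals that the study gives for the 5EL and 5ELKO libraries were not used here, so no counting interval is given. The study lists more 5ELKO libraries than the 4 analysed here. Its RNA integrity values reached lower in 5ELKO than in 5EL, and their part in the group difference was not tested.

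Groups came from the sample labels. No 2 of the 105 library pairs held identical values. The labels name mice by genotype and number only, and p-values measure the spread between these libraries. limma 3.58.1 in R 4.3.3 (lmFit, eBayes with trend) was fitted to genes with log2 of at least 3.32 in 4 of 9 libraries (5ELKO against 5EL) or 3 of 15 (all others), with Benjamini-Hochberg adjustment at 0.05. Exact permutation tests used scipy 1.17.1. The limma script was tested on simulated data. Deviations of same-numbered EL and ELKO libraries correlated (0.45, 0.33 and 0.74). Between replicates 1 and 2, differently numbered libraries gave 0.38 and 0.30, and with replicate 3 they gave -0.63 to -0.47. Same-numbered 5EL and 5ELKO libraries gave -0.24 to 0.14. No label states a pairing, so pairs of EL and ELKO are pairs by number only. Annotation was GENCODE M21, in which 28214 symbols matched. Promoter windows were taken for 4 of the 9 genes, and Gpr17, on chromosome 18, was left out of this step.

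The 9 genes and the lists were chosen with earlier results of these data known. Named genes were the 9, up to 3 genes of each lineage list with the largest statistic in a comparison, Lilrb4a and Apoe, and for likeness the 5 genes closest to the mean of each set. Hepatocyte genes were named where they passed adjustment, and Lims2 and Xist were named after their values were seen. Alternatives were the filter, the variance prior, recentring, quantile normalization, the replicate block, other sets of libraries and leaving out each library.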

Additional observations from a re-analysis of the deposited data

How the results depend on the processing

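Over 1233 alternative values of the 54 lineage gene results, adjusted p was never below 0.05, and the smallest was 0.163. The direction changed in 59 of them, none larger than 0.15 (log2), and Sox10, Myrf and Gpr17 kept theirs in 5ELKO against 5EL, as did Bcas1 and Enpp6. With the replicate block, Olig2 was 0.0126 in 5ELKO against 5EL, -0.0434 in 5EL against EL and -0.00502 in the pooled 5xFAD effect, and Enpp6 was 0.0107 in 5EL against EL. The block brought no lineage gene to an adjusted p under 0.05. By unadjusted p under 0.05 it changed 3 calls, as Myrf and Enpp6 in 5ELKO against 5EL were not called with it and Gpr17 in the pooled effect was. No label pairs same-numbered libraries, so the block was not used in the main fits. Quantile normalization gave -0.000425 for Pdgfra in 5ELKO against 5EL and -0.000690 for Olig1 in the interaction, and recentring gave 0.0176 for Gpr17 in the interaction. Without the 2 choroid plexus libraries, Olig1 was 0.000526 in ELKO against EL, and in the interaction Olig1 was -0.0460, Olig2 -0.0123 and Gpr17 0.00154. Leaving out each library in turn changed the direction of some small differences. In 5EL against EL it did so for Cspg4 (-0.108 to 0.0549), Enpp6 (-0.0957 to 0.0387) and Olig2 (-0.0189 to 0.0729). In 5ELKO against 5EL it did so for Pdgfra (-0.0375 to 0.0481), Cspg4 (-0.0532 to 0.0966), Olig2 (-0.0506 to 0.0515) and Olig1 (-0.0822 to 0.037). In 5ELKO against ELKO it did so for Olig1 (-0.125 to 0.0717), Pdgfra (-0.0538 to 0.023) and Enpp6 (-0.00529 to 0.155). In ELKO against EL it did so for Olig1 (-0.152 to 0.0449) and Gpr17 (-0.0468 to 0.224). In the pooled 5xFAD effect it did so for Bcas1 (-0.0912 to 0.0336), Cspg4 (-0.00739 to 0.0742), Enpp6 (-0.0156 to 0.0671) and Olig1 (-0.0898 to 0.00868). In the interaction it did so for Olig1 (-0.0708 to 0.126) and Gpr17 (-0.12 to 0.151). Counts of genes at adjusted p under 0.05 depended on few libraries. In 5ELKO against 5EL, 3 genes became 1 with no filter, 1 with the replicate block and 0 with all 15 libraries, and 0 to 4 with a library left out, and the count was 0 when 5EL replicate 3, 4 or 5 was dropped, or 5ELKO replicate 1 or 4. In 5EL against EL, 0 genes became 1 with no filter and 0 to 31 with a library left out, in 5ELKO against ELKO 0 to 2, and in ELKO against EL 0 to 1, each highest without EL replicate 1. With no filter, counts at unadjusted p under 0.05 were 912 in 5ELKO against 5EL, 935 in 5ELKO against ELKO, 916 in ELKO against EL, 1563 in the pooled effect and 964 in the interaction, each over 1.5 times the main count, from more genes tested. Dropping EL replicate 1 gave 3204 in 5EL against EL and 2735 in the pooled effect, and dropping EL replicate 3 gave 354 and 474. In ELKO against EL, the count at unadjusted p under 0.05 was 372, 173 in a fit of those 6 libraries and 1110 when that fit had a replicate block, an alternative chosen after seeing the data. The cause of these changes was not tested. The deposited values give no read counts, so the depth behind a single value cannot be read from them.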
